A study of Homo sapiens with 54 samples.

Results

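The BCL2 family decides whether a stressed cell commits to apoptosis through its mitochondria. Its anti-apoptotic proteins, among them BCL2, BCL-xL (made from BCL2L1) and MCL1, bind and hold back the effectors BAK and BAX, which otherwise open the outer mitochondrial membrane. The BH3-only proteins BIM (made from BCL2L11), BID, BIK, BMF, HRK and BAD are the sensors that bind the anti-apoptotic proteins or the effectors and tip this balance. The values here describe the mRNA of 10 of these genes, namely the anti-apoptotic BCL2, BCL2L1 and MCL1, the effector BAK1 and the BH3-only BCL2L11, BID, BIK, BMF, HRK and BAD. They were taken by symbol, out of 59368 genes in the deposited tables. The rule that picked them holds no measured value, but they were chosen with earlier results of these data known. Other genes of the family were read from a separate list.

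The study asked how colorectal cancer cells that had become resistant to 5-fluorouracil (5-FU), a pyrimidine analog used in chemotherapy, differ from the sensitive cells they came from. Human colorectal cancer cells of the lines HT-29, DLD-1 and HCT-116 were used, in a 5-FU-sensitive and a 5-FU-resistant culture per line. Each of these 6 cultures was given either uracil at 10 µM, which served as the control, or 5-FU at 10 µM, alone or followed by X-ray irradiation at the dose the labels call the DL50 of the line, with drug or uracil present for 24 h. This gave 18 conditions with 3 libraries each, 54 in all. Per the study's methods, a resistant culture was obtained by growing a line in rising 5-FU concentrations and was kept in the drug, so that each line is represented by 1 resistant population. The time between irradiation and harvest is not given in the labels. The study calls its triplicates biological, and since the labels do not say whether the 3 libraries of a condition came from separate cultures, the p-values below measure the spread between these libraries.

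A library held 51373543 estimated counts at the median, within a range of 38957142 to 218518344. The deepest library was replicate 2 of sensitive DLD-1 under uracil, and the next deepest held 86673615. The libraries labelled resistant HT-29 did not carry the expression marks of HT-29. Of 64 genes that were at 10 TPM or more in sensitive HCT-116 and at 0.1 TPM or less in both other sensitive lines under uracil, 62 were at 1 TPM or more in the libraries labelled resistant HT-29, and of the 12 genes that marked HT-29 in the same way, 0 were. Of the 20 markers of DLD-1, 19 were at 1 TPM or more in resistant DLD-1. Those libraries are therefore called "labelled resistant HT-29" throughout, and they were compared with HCT-116 as well as with sensitive HT-29. Of 6 genes of the intestinal epithelium, EPCAM, CDH1, KRT8 and KRT18 were at 1 TPM or more in all 54 libraries, VIL1 in 27 and CDH17 in 18, and the latter pair in 0 of the 18 HCT-116 libraries. The leukocyte gene PTPRC and the hepatocyte gene ALB did not reach 1 TPM in any library. The endothelial gene PECAM1 was at 1 TPM or more in 22 libraries and the fibroblast gene COL1A1 in 44, with highest values of 5.20 and 31.1 TPM, and the part of such signal in the results was not tested.

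Levels are given below in TPM, transcript abundances scaled by transcript length and to the same total in each library, which can be compared between genes. A fold change comes from estimated counts scaled by the trimmed mean of M-values (TMM), and a gene passed when edgeR's quasi-likelihood test gave an adjusted p of 0.01 or less over all genes tested. In bulk RNA of a culture, fewer cells of a kind and less RNA per cell cannot be told apart. All 10 members passed the filter on low counts in every fit. Replicate 1 of resistant DLD-1 under uracil stood apart from replicates 2 and 3, in BCL2L1, BMF and BID and over all genes. A chi-square per degree of freedom set each pair of replicates against sampling noise. It was 24.5 against replicate 2, the highest of 54 pairs, and 21.1 against replicate 3, beside 3.33 between replicates 2 and 3. Shares of all genes in contrasts that use resistant DLD-1 under uracil include this library.

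Without 5-FU, BCL2L1 and MCL1 made up nearly all of the anti-apoptotic mRNA of the sensitive lines. BCL2L1 was at 105, 104 and 103 TPM in the DLD-1 libraries, at 120.2, 114 and 117 TPM in HCT-116 and at 142, 150.0 and 136 TPM in HT-29. MCL1, whose protein is short-lived, was at 74.0, 74.3 and 75.3 TPM in DLD-1, 92.1, 91.9 and 95.1 TPM in HCT-116 and 109, 106 and 107 TPM in HT-29. BCL2 was far lower, at 0.697, 0.587 and 0.622 TPM in DLD-1, 1.98, 1.69 and 1.79 TPM in HCT-116 and 0.128, 0.118 and 0.206 TPM in HT-29. For all 3 anti-apoptotic genes the libraries of HCT-116 were above those of DLD-1, and for BCL2L1 and MCL1 those of HT-29 were above both, whereas for BCL2 the HT-29 libraries were the lowest.

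The effector BAK1, which with BAX forms the pore in the outer mitochondrial membrane, was at 16.5, 16.4 and 16.4 TPM in DLD-1, 20.1, 19.0 and 19.4 TPM in HCT-116 and 22.6, 22.5 and 21.7 TPM in HT-29, with no overlap between lines. The BH3-only genes BIK and HRK had the widest ratios between the highest and the lowest line of all members. Between HCT-116 and DLD-1 alone, BCL2 differed by more than BIK. BIK, which encodes a protein of the endoplasmic reticulum membrane, was at 54.7, 53.2 and 53.6 TPM in DLD-1, 20.2, 18.6 and 18.7 TPM in HCT-116 and 1.18, 0.973 and 1.10 TPM in HT-29. HRK, best known from neurons deprived of growth factor, was at 2.04, 1.92 and 1.70 TPM in HCT-116 but at 0.0369, 0.210 and 0.0649 TPM in DLD-1 and 0.0280, 0.00885 and 0 TPM in HT-29, where the 3 HT-29 libraries held 0 to 2 estimated counts. The DLD-1 libraries were thus the highest for BIK and the HCT-116 libraries the highest for HRK, and in neither gene did the lines with the 2 highest means overlap.

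The remaining BH3-only genes were closer between the lines. BMF, whose protein is held on the cytoskeleton by a dynein light chain, was at 2.33, 2.13 and 2.74 TPM in DLD-1, 1.42, 1.76 and 1.32 TPM in HCT-116 and 3.30, 2.80 and 3.00 TPM in HT-29. BCL2L11 was within 10.3 to 10.9 TPM in DLD-1, 10.0 to 11.7 TPM in HCT-116 and 8.13 to 9.23 TPM in HT-29. BID, the link from the death receptors to the mitochondria, was within 62.6 to 68.3, 58.4 to 59.1 and 57.1 to 65.1 TPM in the same order. BAD, whose protein is kept inactive by survival kinases, was within 38.2 to 40.0, 43.6 to 46.7 and 32.7 to 35.7 TPM. The HT-29 libraries were the lowest for BAD and BCL2L11 and the highest for BMF.

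**Figure D1:**
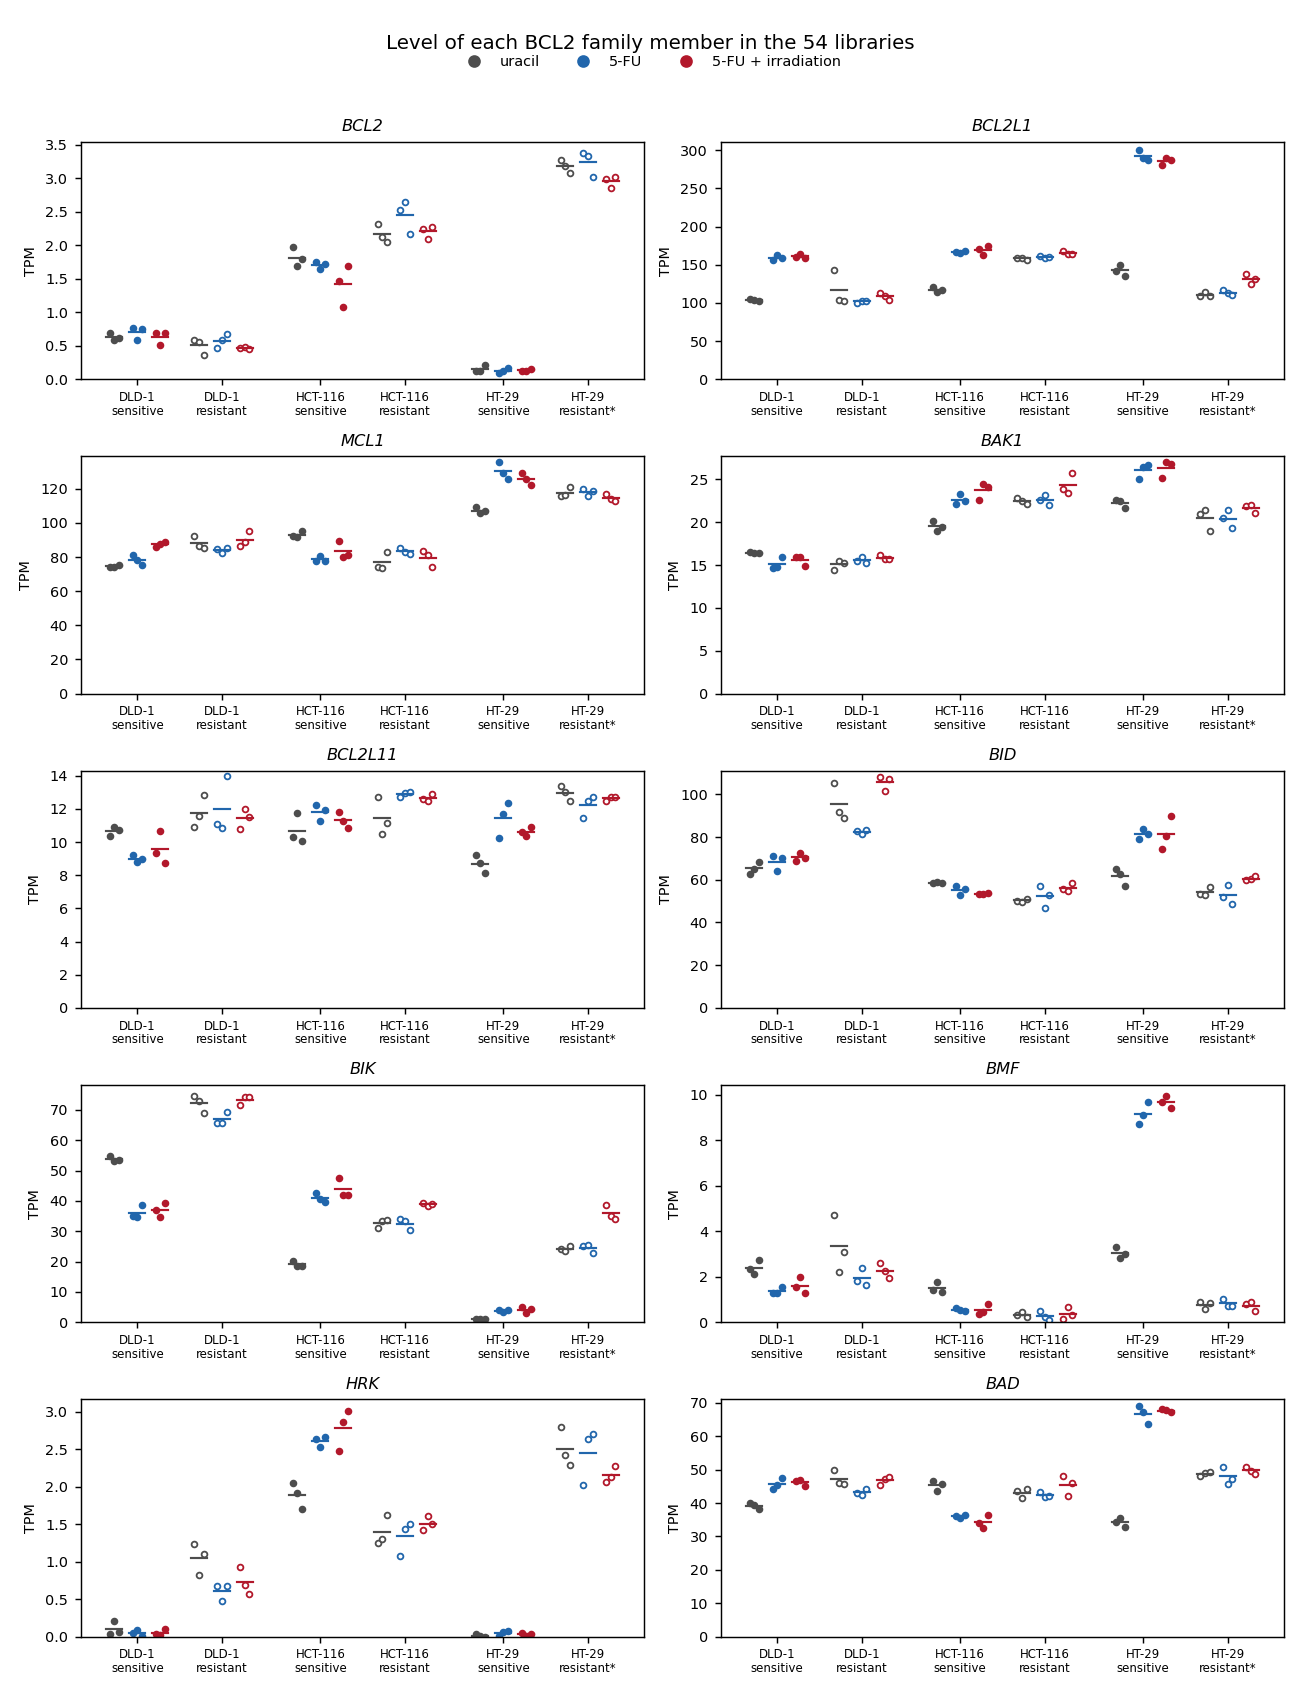
Level of each of the 10 members in TPM, on a linear axis that starts at 0, in each of the 54 libraries by condition, with filled points for sensitive and open points for resistant cultures, horizontal lines for the mean of 3 libraries and * for the libraries labelled resistant HT-29. BCL2L1 in sensitive HT-29 stands at 287 TPM or more under 5-FU against at most 149.99 TPM under uracil. BIK and HRK have the widest ratios between the highest and the lowest sensitive line under uracil.

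In the uracil libraries 7 of 10 members passed between HCT-116 and DLD-1, where 60.2% of all genes tested passed. The largest difference was that of HRK, higher in HCT-116 (log2 fold change of 4.88 ± 0.19 (SE), edgeR adjusted p = 5.19e-16), followed by BCL2, higher (log2 fold change of 1.67 ± 0.12 (SE), edgeR adjusted p = 5.21e-11), and BIK, lower (log2 fold change of -1.47 ± 0.06 (SE), edgeR adjusted p = 1.17e-15). Between HT-29 and DLD-1 8 of 10 members passed, against 60.4% of all genes, and BIK had the largest difference (log2 fold change of -5.48 ± 0.09 (SE), edgeR adjusted p = 1.33e-22). Between HT-29 and HCT-116 all 10 members passed, against 65.6% of all genes, with BIK (log2 fold change of -4.01 ± 0.10 (SE), edgeR adjusted p = 4.04e-20) and BCL2 (log2 fold change of -3.83 ± 0.16 (SE), edgeR adjusted p = 1.50e-15) the furthest apart after HRK. Set against a floor of 3 counts per library in HT-29, HRK was at least 89.5-fold higher in HCT-116 and at least 3.14-fold higher in DLD-1, after division by the library totals. Scaled by library size alone, the median of all genes for HT-29 moved to -0.16 against DLD-1 and -0.15 against HCT-116, from -0.04 and -0.02, and BID no longer passed against DLD-1. BAD passed between HT-29 and HCT-116 at -0.25 but did not without HCT-116 replicate 1, HCT-116 replicate 3 or HT-29 replicate 3. BAK1 likewise passed between HCT-116 and DLD-1 at 0.27 but not without HCT-116 replicate 1, and BCL2L11 between HT-29 and DLD-1 at -0.22 but not without HT-29 replicate 3.

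The stretches upstream of BAK1, BMF, HRK and BAD are shown, 4 of the members that moved in opposite directions between lines or differed most between them. They are RefSeq promoter windows of the reference assembly GRCh38.p14, all on the minus strand, cut to end before every annotated transcript start, and 8 of the 10 members had an entry. The window of BAK1 is chr6:33580294-33580526, that of BMF chr15:40108893-40109129, that of HRK chr12:116881442-116881691 and that of BAD chr11:64284705-64284954. The sequences are written 5′ to 3′, and capitals mark the letters of a searched motif on either strand.
BAK1: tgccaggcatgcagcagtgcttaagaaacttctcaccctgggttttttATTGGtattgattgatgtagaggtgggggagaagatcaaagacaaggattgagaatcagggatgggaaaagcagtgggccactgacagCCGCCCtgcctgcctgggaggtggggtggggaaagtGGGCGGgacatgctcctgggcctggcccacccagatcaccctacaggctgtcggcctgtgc
BMF: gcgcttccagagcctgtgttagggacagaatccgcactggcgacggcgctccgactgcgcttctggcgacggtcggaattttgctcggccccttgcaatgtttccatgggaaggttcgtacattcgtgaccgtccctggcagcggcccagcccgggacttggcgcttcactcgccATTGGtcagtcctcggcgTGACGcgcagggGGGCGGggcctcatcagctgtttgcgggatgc
HRK: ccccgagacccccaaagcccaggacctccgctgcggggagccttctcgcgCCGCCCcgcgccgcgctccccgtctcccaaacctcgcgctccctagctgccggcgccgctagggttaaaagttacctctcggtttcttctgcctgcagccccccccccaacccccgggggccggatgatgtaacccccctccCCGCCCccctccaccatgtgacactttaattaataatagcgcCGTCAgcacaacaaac
BAD: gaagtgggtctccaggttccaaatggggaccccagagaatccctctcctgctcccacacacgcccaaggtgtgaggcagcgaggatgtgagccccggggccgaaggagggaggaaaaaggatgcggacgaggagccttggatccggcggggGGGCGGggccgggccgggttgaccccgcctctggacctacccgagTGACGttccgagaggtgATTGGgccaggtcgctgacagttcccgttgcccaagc
The motifs searched on both strands were GGGCGG (the GC box), CCAAT (the CCAAT box), TATAAA (the TATA box), the E-box CACGTG, and the core of the cAMP response element TGACG. The GC box was found in all 4 windows and in 42.6% of 35116 promoter windows, and CCAAT in those of BAK1, BMF and BAD and in 32.0% of all. TGACG was found upstream of BMF, HRK and BAD and in 21.2% of all windows. BCL2L11 also rose in one line and fell in another, and its window was not printed. It held the GC box at 3 sites and CCAAT at 1, but no TGACG. A second window of BMF, chr15:40106967-40107216, was not printed and held none of the motifs. On the annotation used here BCL2L1, whose windows were not printed, spans chr20:31664452-31723989 on the minus strand. Its window chr20:31723964-31724213 held TATAAA at 2 sites and TGACG at 1, and its window chr20:31722869-31723118 held neither. The TATA box and the E-box, present in 10.7% and 6.34% of all windows, were not found in the 4 windows printed. A match is a run of letters and not a measured site.

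Under 5-FU for 24 h the sensitive lines shared a rise of BCL2L1, and 5 other members rose in one line and fell in another. In sensitive DLD-1 1 member rose and 3 fell, where 14.4% of all genes tested rose and 20.3% fell. In sensitive HCT-116 4 members rose and 3 fell, where 17.6% of all genes rose and 24.4% fell. In sensitive HT-29 6 members rose and 0 fell, where 22.1% of all genes rose and 24.9% fell. The median log2 fold change over the 10 members was 0.47 in HT-29, 0.11 in HCT-116 and -0.16 in DLD-1, beside 0.03, 0.03 and 0.01 over all genes tested. In HT-29 and DLD-1 that median includes HRK, whose counts there were too low for a usable fold change. Its value in these lines is therefore uncertain, and a median without HRK was not taken. BCL2L1 was the single member that rose in all 3 lines, BAK1, BCL2L11, BIK, BMF and BAD were those that rose in one line and fell in another, and BCL2 passed in no line. Scaled by library size alone, the median of all genes moved to 0.19 in HT-29, 0.11 in HCT-116 and 0.12 in DLD-1, and the share of calls that were higher went from 47.0% to 62.1%, from 42.0% to 53.5% and from 41.5% to 60.8% in that order.

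BCL2L1 went from 105, 104 and 103 TPM under uracil to 156, 162 and 159 TPM under 5-FU in DLD-1, a fold change of 1.45 on the TMM scale (log2 fold change of 0.53 ± 0.07 (SE), edgeR adjusted p = 1.75e-06). In HCT-116 it went from 120.2, 114 and 117 to 167, 166 and 168 TPM (log2 fold change of 0.54 ± 0.04 (SE), edgeR adjusted p = 1.77e-10). In HT-29 it went from 142, 150.0 and 136 to 301, 289.9 and 287 TPM (log2 fold change of 0.80 ± 0.05 (SE), edgeR adjusted p = 2.42e-13). In each line every 5-FU library was above every uracil library. The rise in HT-29 was larger than that in DLD-1 by 0.33 ± 0.07 (SE) in log2 fold change (edgeR adjusted p = 3.35e-04) and larger than that in HCT-116 by 0.31 ± 0.07 (edgeR adjusted p = 5.02e-04), whereas HCT-116 and DLD-1 differed by 0.02 ± 0.07.

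MCL1 fell in sensitive HCT-116, from 92.1, 91.9 and 95.1 TPM to 77.8, 80.6 and 77.8 TPM (log2 fold change of -0.26 ± 0.06 (SE), edgeR adjusted p = 3.54e-04). In DLD-1 it did not pass, with 74.0, 74.3 and 75.3 TPM under uracil and 81.0, 78.4 and 75.7 TPM under 5-FU (log2 fold change of -0.08 ± 0.03 (SE), edgeR adjusted p = 0.0591). In HT-29 all MCL1 libraries were higher in TPM under 5-FU, at 136, 129 and 126 against 109, 106 and 107, yet its TMM-scaled log2 fold change was -0.01 ± 0.04 (SE, edgeR adjusted p = 0.896). With library size alone that value was 0.15 and passed, so the sign of the MCL1 difference in HT-29 depends on the scaling. The response of MCL1 in HT-29 was above that in HCT-116 by 0.30 ± 0.06 in log2 fold change (edgeR adjusted p = 7.31e-05).

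The ratio of BCL2L1 to MCL1 mRNA within a library does not depend on the scaling. It went from 1.40 ± 0.03 (SD, n = 3) under uracil to 2.04 ± 0.09 under 5-FU in sensitive DLD-1. The corresponding ratios were 1.26 ± 0.04 and 2.12 ± 0.06 for HCT-116, and 1.33 ± 0.08 and 2.25 ± 0.04 for HT-29. In each line the lowest 5-FU library was above the highest uracil library. The summed level of the 3 anti-apoptotic genes was 179 ± 0.69 TPM (SD) under uracil and 238 ± 2.98 TPM under 5-FU in DLD-1, and BCL2L1 supplied 58.1% of the first sum and 66.8% of the second. BCL2 was at 0.770, 0.582 and 0.755 TPM in DLD-1, 1.75, 1.64 and 1.72 TPM in HCT-116 and 0.0947, 0.122 and 0.168 TPM in HT-29 under 5-FU, and its log2 fold changes of -0.05, -0.21 and -0.40 did not pass. In sensitive HT-29 these values rest on 21 to 31 estimated counts per library.

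The BCL2L1 transcripts that encode the long, anti-apoptotic protein of 233 residues made up 75.8 ± 0.47% (SD, n = 3) of its TPM under uracil in sensitive DLD-1 and 81.2 ± 0.96% under 5-FU. For HCT-116 the same share was 72.1 ± 0.42% and then 75.5 ± 0.38%, and for HT-29 82.7 ± 0.75% and then 81.1 ± 0.63%. Libraries did not overlap between treatments in any of the 3 lines, and the two-sided exact permutation p was 0.1 in each, the smallest that 3 against 3 libraries can give. The mean share under 5-FU minus that under uracil was positive in DLD-1 and HCT-116 and negative in HT-29, by 5.42, 3.33 and -1.62 percentage points. Of single transcripts, BCL2L1-201 was at 55.9, 56.2 and 55.6 TPM under uracil and 73.3, 71.4 and 76.8 TPM under 5-FU in DLD-1. BCL2L1-203 went from 16.1, 13.9 and 15.5 to 41.8, 44.03 and 37.5 TPM in DLD-1 and from 4.22, 3.68 and 8.45 to 14.2, 19.4 and 22.7 TPM in HCT-116. Its mean share of all BCL2L1 TPM in DLD-1 was 14.6% under uracil and 25.8% under 5-FU, beside 4.65% and 11.2% for HCT-116, but 16.3% and 15.5% for HT-29. The estimates of single transcripts share reads among near-identical sequences and carry that uncertainty. For MCL1 the share of transcripts for the full protein of 350 residues was 84.6% under uracil and 80.8% under 5-FU in sensitive DLD-1 (two-sided exact permutation p = 0.1), 87.8% and 84.8% in HT-29 (exact p = 0.1), and 90.7% and 89.1% in HCT-116 (exact p = 0.3).

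**Figure D2:**
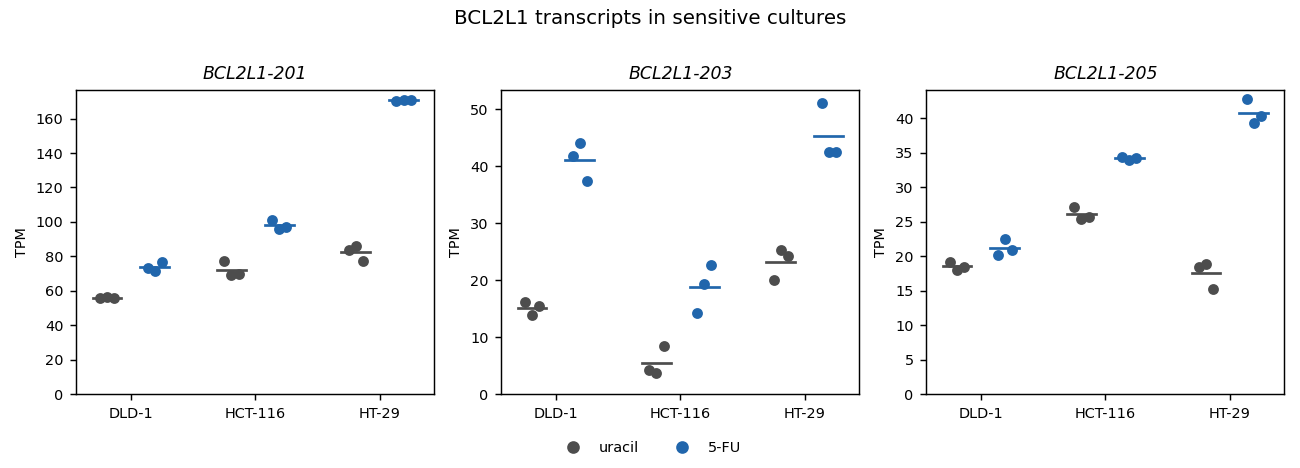
Level in TPM of BCL2L1-201, BCL2L1-203 and BCL2L1-205 under uracil and 5-FU in the sensitive lines, with a point for each of 3 libraries. BCL2L1-203 in DLD-1 goes from a mean of 15.2 to 41.1 TPM and in HCT-116 from 5.45 to 18.8 TPM.

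BAK1 fell in sensitive DLD-1, from 16.5, 16.4 and 16.4 TPM to 14.6, 14.7 and 15.9 TPM (log2 fold change of -0.24 ± 0.05 (SE), edgeR adjusted p = 9.28e-04). It rose in sensitive HCT-116, from 20.1, 19.0 and 19.4 to 22.1, 23.3 and 22.5 TPM (log2 fold change of 0.20 ± 0.05 (SE), edgeR adjusted p = 0.0014). In HT-29 it was at 22.6, 22.5 and 21.7 TPM under uracil and 25.1, 26.5 and 26.6 TPM under 5-FU, with a log2 fold change of -0.01 ± 0.05 (SE, edgeR adjusted p = 0.85). Library size alone turned the last value to 0.14, which passed, and took the DLD-1 call away. The DLD-1 call was also lost without 5-FU replicate 1 (-0.20), and the HCT-116 call without uracil replicate 2, uracil replicate 3, 5-FU replicate 2 or 5-FU replicate 3 (0.16 to 0.19). The response in HCT-116 was above that in DLD-1 by 0.46 ± 0.07 in log2 fold change (edgeR adjusted p = 8.61e-06).

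BIK moved in opposite directions. In sensitive DLD-1, the line where it was highest, it fell from 54.7, 53.2 and 53.6 TPM to 35.2, 34.8 and 38.5 TPM (log2 fold change of -0.68 ± 0.05 (SE), edgeR adjusted p = 6.54e-10). In HCT-116 it rose from 20.2, 18.6 and 18.7 to 42.5, 40.6 and 39.5 TPM, a fold change of 2.12 (log2 fold change of 1.08 ± 0.06 (SE), edgeR adjusted p = 2.09e-12). In HT-29 it rose from 1.18, 0.973 and 1.10 to 4.00, 3.23 and 3.92 TPM (log2 fold change of 1.52 ± 0.18 (SE), edgeR adjusted p = 4.19e-08). After 5-FU the HCT-116 libraries, at 39.5 to 42.5 TPM, were all above the DLD-1 libraries, at 34.8 to 38.5 TPM. Under uracil the order was the reverse, with a log2 fold change of -1.47 for HCT-116 against DLD-1. HT-29 stayed far below both. The response in HCT-116 exceeded that in DLD-1 by 1.78 ± 0.08 (edgeR adjusted p = 1.22e-14) and that in HT-29 exceeded DLD-1 by 2.27 ± 0.15 (edgeR adjusted p = 6.23e-12).

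BMF also split the lines. It fell in HCT-116 from 1.42, 1.76 and 1.32 TPM to 0.616, 0.538 and 0.506 TPM (log2 fold change of -1.54 ± 0.24 (SE), edgeR adjusted p = 8.89e-06), and it rose in HT-29 from 3.30, 2.80 and 3.00 to 8.70, 9.09 and 9.68 TPM, a fold change of 2.44 (log2 fold change of 1.29 ± 0.08 (SE), edgeR adjusted p = 1.03e-13). In DLD-1 it was at 2.33, 2.13 and 2.74 TPM under uracil and 1.27, 1.28 and 1.53 TPM under 5-FU without overlap, and just missed the threshold (log2 fold change of -0.66 ± 0.20 (SE), edgeR adjusted p = 0.0107). That value passed with DESeq2, with no filter on low counts and with the compared groups fitted alone. The HT-29 response was above that of HCT-116 by 2.87 ± 0.15 in log2 fold change (edgeR adjusted p = 3.47e-14), the largest difference between lines among members with counts above the floor.

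BAD rose in HT-29, from 34.3, 35.7 and 32.7 TPM to 69.2, 67.2 and 63.7 TPM (log2 fold change of 0.81 ± 0.06 (SE), edgeR adjusted p = 1.10e-11), and fell in HCT-116, from 46.7, 43.6 and 45.6 to 36.1, 35.5 and 36.5 TPM (log2 fold change of -0.32 ± 0.06 (SE), edgeR adjusted p = 4.02e-05). In DLD-1 its libraries were at 40.0, 39.4 and 38.2 and 44.3, 45.3 and 47.6 TPM, and the difference did not pass (log2 fold change of 0.14 ± 0.04 (SE), edgeR adjusted p = 0.0128). Every 5-FU library was above every uracil library in DLD-1 and HT-29 and below in HCT-116. The HT-29 response was above that of HCT-116 by 1.17 ± 0.09 in log2 fold change (edgeR adjusted p = 2.93e-11). HRK rose in HCT-116, the line that expressed it, from 2.04, 1.92 and 1.70 to 2.64, 2.52 and 2.66 TPM (log2 fold change of 0.81 ± 0.09 (SE), edgeR adjusted p = 4.62e-08). The ratio of its mean TPM was 1.38, a smaller rise than the fitted one. In sensitive DLD-1 under 5-FU HRK was left with 1 to 9 estimated counts per library and in sensitive HT-29 with 3 to 7, so that no fold change is given for either.

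BCL2L11, the gene of BIM, fell in DLD-1 from 10.3, 10.9 and 10.7 TPM to 9.20, 8.81 and 8.97 TPM (log2 fold change of -0.34 ± 0.05 (SE), edgeR adjusted p = 1.54e-05). In HT-29 it rose from 9.23, 8.77 and 8.13 to 10.3, 11.7 and 12.4 TPM (log2 fold change of 0.14 ± 0.04 (SE), edgeR adjusted p = 0.00823), and in HCT-116 it did not pass, with 10.3, 11.7 and 10.0 and 12.2, 11.3 and 11.9 TPM (log2 fold change of 0.13 ± 0.05 (SE), edgeR adjusted p = 0.0227). BID was at 65.1, 62.6 and 57.1 TPM under uracil and 79.1, 84.0 and 81.4 TPM under 5-FU in HT-29, where it rose (log2 fold change of 0.14 ± 0.04 (SE), edgeR adjusted p = 0.00945), and its log2 fold changes of 0.08 in HCT-116 and -0.06 in DLD-1 did not pass. Mean BID TPM moved against these signs, from 58.7 to 55.3 in HCT-116, without overlap, and from 65.3 to 68.3 in DLD-1, with overlap. In HT-29 the rises of BCL2L11 and BID failed the test without the filter on low counts and with the compared groups fitted alone. For BCL2L11 no neighbouring pair among the 18 conditions ordered by mean level was free of overlap, and it was the member with the smallest range, from a mean of 8.71 TPM to one of 12.96 TPM.

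**Figure D3:**
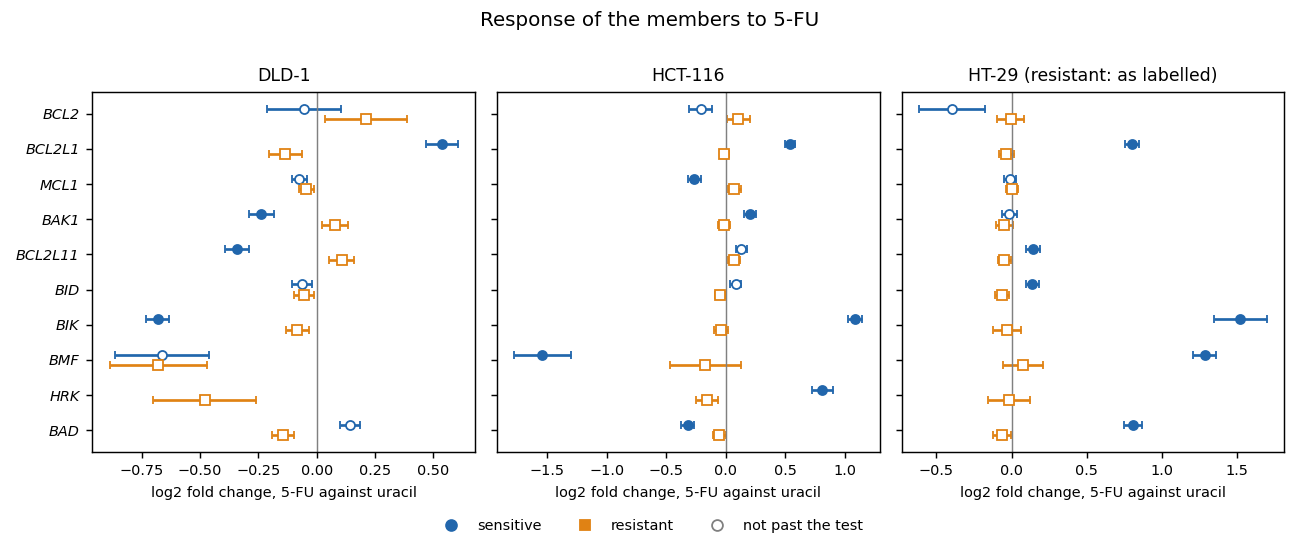
TMM-scaled log2 fold change of each member under 5-FU against uracil in the sensitive and resistant cultures of each line, with bars for 1 SE, filled points where edgeR's adjusted p was 0.01 or less and open points otherwise. HRK in sensitive DLD-1 and HT-29 is left out because its counts are near 0. BCL2L1 lies at 0.53, 0.54 and 0.80 in the sensitive lines, and the resistant cultures hold no filled point.

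The line differences in response were also counted. Between HCT-116 and DLD-1 the 5-FU responses of 6 of 10 members differed, where 28% of all genes tested did, between HT-29 and DLD-1 7 members, where 30.2% did, and between HT-29 and HCT-116 4 members, where 38% did. For HT-29 against DLD-1 all 7 differences were toward a higher response in HT-29. The BAK1 difference among them, 0.29, was lost without DLD-1 5-FU replicate 1. HRK, with 1.83 between HCT-116 and DLD-1, rests on 1 to 9 estimated counts per 5-FU library in DLD-1, so its size is uncertain.

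In the resistant cultures no member passed the test under 5-FU. With edgeR 0 of 10 passed in DLD-1, where 0.385% of all genes tested passed, 0 in HCT-116, where 0% passed, and 0 in the labelled resistant HT-29, where 0.0421% passed. With an unadjusted p under 0.05 there were 3, 0 and 0 members, beside 4041 of 21814, 1878 of 22975 and 1280 of 23756 genes tested. DESeq2 passed 0 members in each. BCL2L1 was at 99.9, 103 and 103 TPM under 5-FU in resistant DLD-1, beside 142, 104 and 103 TPM under uracil, of which replicate 1 stood apart. In resistant HCT-116 it was at 162, 158 and 160.4 TPM under 5-FU and 159, 159 and 156 TPM under uracil. In the labelled resistant HT-29 it was at 117, 113 and 110.0 and 109, 115 and 109 TPM. The largest fitted value was that of BMF in resistant DLD-1, log2 fold change of -0.68 ± 0.21 (SE), edgeR adjusted p = 0.0773, with 4.69, 2.23 and 3.07 TPM under uracil and 1.83, 2.36 and 1.63 TPM under 5-FU. Without a filter on low counts BMF passed there, and without uracil replicate 1, the highest library, its log2 fold change was -0.29 and did not pass. In HCT-116 and the labelled resistant HT-29 all 10 values lay between -0.17 and 0.10 on the log2 scale.

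The response of the resistant culture was tested against that of the sensitive one. In DLD-1 5 of 10 members differed, where 22.8% of all genes tested did, in HCT-116 6, where 29.7% did, and in HT-29 as labelled 4, where 35.4% did. BCL2L1 responded less in the resistant cultures of all 3 lines, with a difference in log2 fold change of -0.67 ± 0.10 in DLD-1 (edgeR adjusted p = 1.89e-05), -0.55 ± 0.06 in HCT-116 (edgeR adjusted p = 6.82e-08) and -0.84 ± 0.07 in HT-29 as labelled (edgeR adjusted p = 2.44e-10). Without resistant uracil replicate 1 the DLD-1 value was -0.53 and passed. BIK differed by 0.60 in DLD-1 and by -1.12 and -1.55 in HCT-116 and HT-29 as labelled, in each line against its sensitive response. The HCT-116 differences of BMF (1.37) and BAD (0.26) did not hold when single libraries were left out, 8 of 12 ways for BMF and 9 of 12 for BAD, and BMF rests on 21 to 37 estimated counts per resistant library. For BMF these were sensitive uracil replicates 1 and 2, sensitive 5-FU replicates 1 and 3, resistant uracil replicates 1 and 3 and resistant 5-FU replicates 1 and 2, with values from 1.14 to 1.44. For BAD they were sensitive uracil replicates 1 and 3, every sensitive 5-FU replicate, resistant uracil replicates 2 and 3 and resistant 5-FU replicates 1 and 3, with values from 0.25 to 0.28. BAK1 in DLD-1 (0.32) was lost without sensitive 5-FU replicate 1 or resistant 5-FU replicate 2, and with library size alone. With library size alone the share of these differences that were higher moved from 60.0% to 39.2% for DLD-1, from 61.6% to 51.5% for HCT-116 and from 54.5% to 41.2% for HT-29, and the median of all genes to -0.16 in HT-29 and -0.12 in DLD-1. In the labelled resistant HT-29 line and resistance cannot be told apart in these differences. Sensitive and resistant comparisons each have their own control libraries.

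Under uracil, resistant DLD-1 differed from sensitive DLD-1 in 5 of 10 members, all higher, where 13.1% of all genes tested were higher and 11.5% lower. HRK went from 0.0369, 0.210 and 0.0649 TPM in the sensitive libraries to 1.24, 0.819 and 1.10 TPM in the resistant ones, a fold change of 14.9 (log2 fold change of 3.90 ± 0.27 (SE), edgeR adjusted p = 3.99e-10). Its resistant libraries held 115 to 142 estimated counts against 8 to 35. BIK was at 74.5, 72.9 and 69.0 TPM in resistant DLD-1 against 54.7, 53.2 and 53.6 TPM (log2 fold change of 0.41 ± 0.05 (SE), edgeR adjusted p = 1.00e-06), and BID at 105, 91.7 and 88.9 against 62.6, 65.0 and 68.3 TPM (log2 fold change of 0.37 ± 0.04 (SE), edgeR adjusted p = 4.17e-07), or 0.32 without resistant replicate 1. MCL1 and BAD were higher by 0.26 ± 0.03 and 0.29 ± 0.05 (SE) on the log2 scale. BCL2L1 in resistant DLD-1 did not pass (log2 fold change of 0.14 ± 0.07 (SE), edgeR adjusted p = 0.122), and without resistant replicate 1 its value was 0.0041. The resistant and sensitive libraries did not overlap for HRK, BIK or BID, and 5 members passed as well without resistant uracil replicate 1.

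Resistant HCT-116 differed from sensitive HCT-116 in 6 members, 3 higher and 3 lower, where 16.4% of all genes tested were higher and 24.7% lower. BCL2L1 was at 159, 159 and 156 TPM against 120.2, 114 and 117 TPM (log2 fold change of 0.45 ± 0.04 (SE), edgeR adjusted p = 3.98e-09). BMF was at 0.327, 0.445 and 0.226 TPM against 1.42, 1.76 and 1.32 TPM (log2 fold change of -2.37 ± 0.26 (SE), edgeR adjusted p = 7.53e-08), on 28 to 37 estimated counts. BIK was higher (log2 fold change of 0.73 ± 0.06 (SE), edgeR adjusted p = 2.34e-09) and MCL1 lower (log2 fold change of -0.34 ± 0.06 (SE), edgeR adjusted p = 2.20e-05). HRK was lower (-0.38 ± 0.09), a call lost without sensitive uracil replicate 1 or resistant uracil replicate 3, and BAK1 higher (0.16 ± 0.05), a call lost without sensitive replicate 2 or 3 or any single resistant replicate.

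The labelled resistant HT-29 differed from sensitive HT-29 in 9 members, 4 higher and 5 lower, where 34.1% of all genes tested were higher and 34.3% lower, and from HCT-116 in fewer. BCL2 was at 3.28, 3.18 and 3.08 TPM in the labelled resistant HT-29 against 0.128, 0.118 and 0.206 TPM in sensitive HT-29 (log2 fold change of 4.49 ± 0.14 (SE), edgeR adjusted p = 2.22e-20). HRK was at 2.79, 2.42 and 2.28 TPM against 0.0280, 0.00885 and 0 TPM and was at least 124-fold higher against a floor of 3 counts per library. BIK was higher (log2 fold change of 4.19 ± 0.14 (SE), edgeR adjusted p = 2.50e-19) and BMF lower (log2 fold change of -2.45 ± 0.11 (SE), edgeR adjusted p = 3.16e-17). With library size alone the median of all genes in this comparison moved to 0.26, the share of calls that were higher from 49.8% to 61.0%, and MCL1 from -0.20 to 0.065, where it no longer passed. That MCL1 call was also lost without sensitive HT-29 uracil replicate 1. In TPM MCL1 ran the other way, with a mean of 118 against 107 TPM and no overlap between libraries. BAD was the member that did not pass, though its mean was 48.7 against 34.2 TPM, also without overlap. Against sensitive HCT-116, 2 members passed, where 27.6% of all genes tested did, BCL2 higher (log2 fold change of 0.67 ± 0.11 (SE), edgeR adjusted p = 7.02e-05) and BMF lower (log2 fold change of -1.03 ± 0.23 (SE), edgeR adjusted p = 0.00102), the latter lost without labelled resistant HT-29 replicate 2. In that comparison library size alone took the share of higher calls from 32.1% to 56.5%. Against resistant HCT-116, 7 members passed, where 16.8% of all genes did, with BMF the highest (log2 fold change of 1.38 ± 0.28 (SE), edgeR adjusted p = 7.93e-04) and BCL2L1 the lowest (log2 fold change of -0.61 ± 0.08 (SE), edgeR adjusted p = 3.02e-06). Of these, BCL2 (0.45) was lost whichever of the 6 libraries was left out, and BAK1 (-0.22) without resistant HCT-116 replicate 1, 2 or 3 or labelled resistant HT-29 replicate 1 or 3. In mean TPM under uracil, without regard to spread, these libraries lay nearer to both HCT-116 cultures than to sensitive HT-29 in 7 members. For BID this rests on 54.1 TPM, beside 58.7 and 50.3 TPM in sensitive and resistant HCT-116 and 61.6 TPM in sensitive HT-29. The same count over all genes was not made. BCL2L1 and BAK1 lay nearer to sensitive HCT-116 but farther from resistant HCT-116 than from sensitive HT-29. MCL1, at 118 TPM, lay nearest to sensitive HT-29 at 107 TPM, against 93.0 and 77.0 TPM in sensitive and resistant HCT-116.

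**Figure D4:**
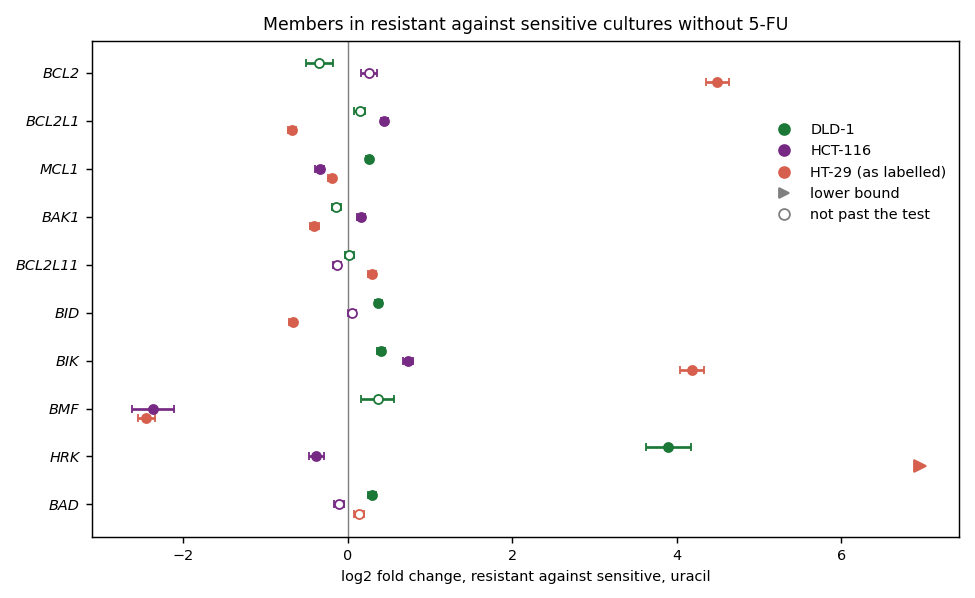
TMM-scaled log2 fold change of each member in resistant against sensitive cultures under uracil, by line, with bars for 1 SE, filled points where edgeR's adjusted p was 0.01 or less, open points otherwise and a triangle for a lower bound. HRK in DLD-1 lies at 3.90 and BCL2 and BIK of the labelled resistant HT-29 at 4.49 and 4.19.

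When irradiation was added to 5-FU no member passed in the sensitive lines, with edgeR calling 0 of 10 in HT-29, HCT-116 and DLD-1, where 0.00842%, 0.927% and 0.0642% of all genes tested passed. With an unadjusted p under 0.05 there were 0, 1 and 1 members, beside 786 of 23756, 1943 of 22975 and 2447 of 21814 genes tested. DESeq2 passed 1 member, MCL1, in DLD-1 and 0 in the others. In sensitive DLD-1 library size alone moved the share of higher calls over all genes from 57.1% to 68.8%. In resistant DLD-1 1 of 10 members passed, where 3.85% of all genes did, and this was BID, with 82.7, 81.4 and 83.4 TPM under 5-FU and 108, 102 and 107 TPM with irradiation (log2 fold change of 0.27 ± 0.04 (SE), edgeR adjusted p = 3.23e-04). The groups of 3 libraries did not overlap. In resistant HCT-116 1 member passed, where 2.58% of all genes did, and this was BIK, with 33.9, 33.2 and 30.4 and 39.3, 38.4 and 39.1 TPM (log2 fold change of 0.27 ± 0.06 (SE), edgeR adjusted p = 0.00837). That call was lost whichever of the 6 libraries was left out, at 0.21 to 0.29. In the labelled resistant HT-29 3 members passed, where 14.4% of all genes did. BIK was at 25.3, 25.5 and 22.8 TPM under 5-FU and at 38.7, 34.8 and 34.1 TPM with irradiation (log2 fold change of 0.53 ± 0.09 (SE), edgeR adjusted p = 1.28e-04), without overlap. BCL2L1 (0.20 ± 0.05) and BID (0.19 ± 0.05) each lost their call in 4 of 6 ways of leaving out a library, BCL2L1 without 5-FU replicate 2 or 3 or irradiated replicate 1 or 3, and BID without 5-FU replicate 1 or 3 or irradiated replicate 1 or 2.

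Across the 18 conditions HRK had the widest ratio of mean levels, from 0.0123 TPM in sensitive HT-29 under uracil, under the floor of 3 counts, to 2.78 TPM in irradiated sensitive HCT-116. BIK ranged from 1.09 TPM in sensitive HT-29 under uracil to 73.3 TPM in irradiated resistant DLD-1, a ratio of 67.6, and BMF from 0.276 TPM in resistant HCT-116 under 5-FU to 9.67 TPM in irradiated sensitive HT-29. BCL2 had a ratio of 25.3, with its lowest mean in sensitive HT-29 under 5-FU and its highest, 3.25 TPM, in the labelled resistant HT-29 under 5-FU. The other members kept to ratios of 2.87 for BCL2L1, 2.10 for BID, 1.98 for BAD, 1.75 for MCL1 and BAK1 and 1.49 for BCL2L11. When conditions were ordered by mean level, 8 of the 17 neighbouring pairs had libraries that did not overlap for BIK, 5 for BCL2, 4 for BCL2L1, MCL1 and BID, 3 for BMF, HRK and BAD, 2 for BAK1 and 0 for BCL2L11. Most neighbouring levels were thus not told apart by 3 libraries each.

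For 6 members whose condition means spanned at least 1 on log2(TPM + 1), the 2 genes with the smallest root mean square difference of centred condition means were sought among 21996 genes over the 18 conditions. BCL2L1 was closest to AL121753.2 at 0.13, against its own root mean square of 0.43. BIK was closest to APOBEC3F at 0.39 and TAP1 at 0.46, against 1.40 of its own, and BMF to AC008875.3 and HELZ2, both at 0.28. HRK was closest to ST6GALNAC6 and SLC5A4-AS1, both at 0.17, BCL2 to AL109615.3 at 0.12 and MED13L at 0.13, and BID to ATP13A2 at 0.12 and KCTD10 at 0.13. With a pseudocount of 0.1 TPM in place of 1, both genes changed for BCL2 and BMF and 1 of the 2 for HRK, BIK and BCL2L1, and neither for BID. Among genes whose highest condition mean reached 5 TPM, both changed for BCL2L1, so that AL121753.2 was no longer its closest gene, and 1 of the 2 for HRK.

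The rest of the pathway was read from lists that, like the members, were drawn up with results of these data known. Over all genes tested under 5-FU in the sensitive lines, 22.1% rose and 24.9% fell in HT-29, 17.6% and 24.4% in HCT-116 and 14.4% and 20.3% in DLD-1, against which the counts are to be read. Of the other BCL2 family genes tested, 1 rose and 4 fell of 13 in sensitive DLD-1 under 5-FU, 4 rose and 8 fell of 13 in HCT-116, and 4 rose and 6 fell of 14 in HT-29. BBC3, the gene of the BH3-only protein PUMA, had the largest fall in DLD-1 (log2 fold change of -1.07 ± 0.10 (SE), edgeR adjusted p = 2.67e-08), and BCL2L15 the largest rise in HCT-116 (log2 fold change of 1.28 ± 0.18 (SE), edgeR adjusted p = 2.95e-06). Of 14 apoptosome, caspase and mitochondrial genes, 0 rose and 7 fell in DLD-1, 1 rose and 7 fell in HCT-116, and 4 rose and 5 fell in HT-29, where APAF1, the scaffold of the apoptosome, rose most (log2 fold change of 0.61 ± 0.06 (SE), edgeR adjusted p = 1.68e-09). Of the caspase inhibitors 0 rose and 1 fell of 5 in DLD-1, 3 rose and 2 fell of 6 in HCT-116, and 4 rose and 1 fell of 6 in HT-29. Of 5 genes for MCL1 turnover and for partners of BH3-only proteins, 1 rose and 1 fell in DLD-1, 1 rose and 2 fell in HCT-116, and 1 rose and 3 fell in HT-29. The cell cycle inhibitor CDKN1A, given as a reference, did not pass in sensitive DLD-1 (log2 fold change of -0.37 ± 0.20 (SE), edgeR adjusted p = 0.14) and rose in HCT-116 (log2 fold change of 1.60 ± 0.06 (SE), edgeR adjusted p = 1.82e-15) and HT-29 (log2 fold change of 3.91 ± 0.07 (SE), edgeR adjusted p = 2.42e-23), and MDM2, a ubiquitin ligase, rose in HCT-116 (log2 fold change of 1.30 ± 0.05 (SE), edgeR adjusted p = 8.15e-16), beside values of -0.03 in DLD-1 and 0.09 in HT-29 that did not pass. In the resistant cultures under 5-FU 1 of 41 listed genes, BNIP3, fell in the labelled resistant HT-29 (log2 fold change of -0.31 ± 0.04 (SE), edgeR adjusted p = 8.70e-04), 0 of 40 in HCT-116 and 0 of 39 in DLD-1, with 4, 3 and 10 at an unadjusted p under 0.05. Over all genes tested, 1280 of 23756, 1878 of 22975 and 4041 of 21814 were under that unadjusted p in the same order.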

How the data were processed

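RNA of 3 human colorectal cancer lines was sequenced in 54 libraries. Per the submitters' processing notes and the study's methods, the authors trimmed reads with Trimmomatic 0.36, checked them with FastQC 0.11.8 and quantified them with kallisto 0.44.0 on GRCh38.p13 transcripts. They deposited estimated counts, not normalized, and TPM per gene, each summed over transcripts by the authors. TPM is relative to all transcripts of a library, so a few abundant genes can move it.

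Estimated counts were rounded to whole numbers and tested with edgeR 4.0.16 (TMM, filterByExpr, quasi-likelihood) in R 4.3.3, in 1 fit per line over 18 libraries and 6 groups, 1 over the 18 uracil libraries and 1, added after seeing the data, over the 18 sensitive uracil and 5-FU libraries. P-values were adjusted by Benjamini-Hochberg over all genes of a fit, 21814 to 24461, and a gene passed at 0.01 or less. The fits held no offset for transcript length, unlike TPM, and the part of this in gaps between TPM and fold changes was not tested. The study's additional 2-fold rule, DESeq2 1.42.0, library size alone, no filter, a replicate block, the compared groups alone and each library left out were alternatives. Transcript shares came from TPM by annotated coding length and were compared by exact permutation. That check was void for BCL2L11 and BID, where annotated transcripts covered less than 80% of TPM in some libraries. Scripts were tested on simulated data.

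Members and lists were chosen with earlier results of these data known. All 10 members are named. Of the other lists the gene with the largest rise or fall may be named, and BNIP3 is named as the single call. The gene second in likeness to BCL2L1 is not reported here.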

Additional observations from a re-analysis of the deposited data

Results flagged for a closer look

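A test of the difference between 2 responses passed (edgeR adjusted p of 0.01 or less) for 32 pairs of a member and a contrast, each given here as a difference in TMM-scaled log2 fold change with 3 libraries per group. The 5-FU response of the resistant minus that of the sensitive culture was -0.67 for BCL2L1 (-0.53 without resistant uracil replicate 1), -0.29 for BAD, 0.32 for BAK1, 0.45 for BCL2L11 and 0.60 for BIK in DLD-1. In HCT-116 it was -1.12 for BIK, -0.97 for HRK, -0.55 for BCL2L1, 0.26 for BAD, 0.34 for MCL1 and 1.37 for BMF. With the libraries labelled resistant HT-29 it was -1.55 for BIK, -1.21 for BMF, -0.87 for BAD and -0.84 for BCL2L1, and since those libraries carry HCT-116 markers, line and resistance cannot be told apart in these 4 values. The calls for BAD and BMF in HCT-116 and for BAK1 in DLD-1 were lost when some single libraries were left out.

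Among the sensitive cultures, the 5-FU response of HCT-116 minus that of DLD-1 was -0.85 for BMF, -0.44 for BAD, 0.46 for BAK1, 0.49 for BCL2L11, 1.78 for BIK and 1.83 for HRK. That HRK value rests on counts near the floor in DLD-1. HT-29 minus DLD-1 was 0.27 for BID, 0.29 for BAK1 (a call lost without DLD-1 5-FU replicate 1), 0.33 for BCL2L1, 0.55 for BCL2L11, 0.73 for BAD, 2.01 for BMF and 2.27 for BIK. HT-29 minus HCT-116 was 0.30 for MCL1, 0.31 for BCL2L1, 1.17 for BAD and 2.87 for BMF. The fits over sensitive lines share their 5-FU and uracil libraries between contrasts, so these differences are not independent of each other.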

How the results depend on the processing

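Precision is limited by 3 libraries per condition and by low counts of HRK and BMF. Of results for single members, counting one for each member and comparison, 245 of 254 kept their side of the threshold with DESeq2, 250 of 260 without the filter on low counts, 236 of 254 with the compared groups alone, 235 of 260 with library size alone and 1836 of 1920 when 1 library was left out. A change of sign was counted only where a result passed under either setting. For results that passed under neither, direction was not checked. With library size alone the log2 fold change in sensitive HT-29 under 5-FU became 0.15 for MCL1 and 0.14 for BAK1, and MCL1 in labelled resistant against sensitive HT-29 became 0.065, all against negative values with TMM. Another scaling by construction shifts all genes of a comparison together.

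Requiring a log2 fold change of at least 1 besides the adjusted p left 2, 2 and 0 members for 5-FU in sensitive HT-29, HCT-116 and DLD-1 (12.2%, 8.14% and 4.02% of all genes tested), 0, 0 and 0 for irradiation in their resistant cultures (0.434%, 0.0261% and 0.142%), 4, 1 and 1 for resistant against sensitive (39.4%, 11% and 5.70%), and 2, 2 and 0 for the difference in response between them (9.28%, 6.11% and 3.12%). Under that rule there were 3, 3 and 4 members for HCT-116 against DLD-1, HT-29 against DLD-1 and HT-29 against HCT-116 among sensitive uracil libraries (31.2%, 31.8% and 38.6%), 1 and 1 for the labelled resistant HT-29 against sensitive and against resistant HCT-116 (6.86% and 3.29%), and 2, 2 and 2 for the same 3 pairs of sensitive responses (5.70%, 7.42% and 12.7%). DESeq2 gave 1 member for irradiation in sensitive DLD-1, and no filter gave 1 for 5-FU in resistant DLD-1. The compared groups alone gave 0 for irradiation in resistant HCT-116 and 5 for the labelled resistant HT-29 against sensitive HCT-116, as did library size alone for the latter, with 5. For these settings the share of all genes that passed was not counted, so such counts cannot be set against it.

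With 1 library left out the counts ran from 0 to 0 for irradiation in resistant HCT-116, from 1 to 2 for irradiation in the labelled resistant HT-29, from 1 to 3 for the labelled resistant HT-29 against sensitive HCT-116, from 4 to 5 for the difference in response in HCT-116 and from 4 to 6 for that in HT-29. Here too the share of all genes that passed was not counted.

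Libraries that share a replicate number correlated in their deviations from the group means at r of -0.08 to 0.10 over 60 pairs of libraries. No strong deviation was thus shared by number, but these values cannot show whether libraries of the same number were prepared together. With the replicate number as a block 256 of 260 results kept their side of the threshold, with sign changes counted as above. In sensitive DLD-1 under 5-FU 4 members passed without the block and 5 with it, and 7 and 7 did in sensitive HCT-116. The share of all genes that passed with the block was not counted.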
